A study of Homo sapiens with 8 samples.

Results

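The inflammatory cytokines and chemokines examined here were 10 secreted proteins, namely the CXC chemokines CXCL8, CXCL1, CXCL2 and CXCL3, the CC chemokine CCL2, the IL-6 family members IL6 and LIF, the macrophage growth factor CSF1, and the IL-1 family members IL1A and IL1B. They were chosen by name, and all 10 were found among 18693 genes with a symbol. Of the 10, the 8 other than IL1A and IL1B reached a mean of 1 FPKM (a read density per length of transcript and per depth of the library) and entered the fit over 10503 genes, and each of these 8 was at or above 1 FPKM in every library.

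Chemokines are small secreted proteins that attract leukocytes along a gradient. The CXC members of this set draw neutrophils through the receptors CXCR1 and CXCR2, whereas CCL2 draws monocytes through CCR2. IL-6 and LIF signal through receptor complexes that share the subunit gp130, CSF1 sustains macrophages through its receptor CSF1R, and IL-1 is the upstream cytokine that induces many of the others. Several of these genes are known targets of the transcription factor NF-κB, and tumor cells, including those of kidney cancers, can transcribe them without any immune cell being present.

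The RNA-seq libraries came from A498 and 786-O, both established cell lines of clear cell renal cell carcinoma (ccRCC). Each cell line was transfected with a non-targeting control siRNA (NTC, 2 libraries), with siRNA1 against the lincRNA SLINKY (1 library) or with siRNA2 against the same lincRNA (1 library), at 50 nM, and 8 libraries were made in all. The labels give a transfection time of 16 hr and call all siRNAs pools, while the methods of the study describe 2 separate siRNAs with the same transfection time, and RNA isolated later. A498 was grown in DMEM and 786-O in RPMI-1640, so cell line and medium cannot be told apart. No label says that the libraries came from separate cultures, and p-values then measure only the spread between these libraries, which may be technical.

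Estimated depth was 25057924 to 64498569 mapped reads per library. SLINKY stood at 14.6 and 16.1 FPKM in the A498 NTC libraries, 1.64 with siRNA1 and 3.01 with siRNA2, and at 1.45 and 1.39 FPKM in the 786-O NTC libraries, 0.0569 with siRNA1 and 0.594 with siRNA2. Of 8 kidney and tumor cell markers, PAX8, KRT8, KRT18 and VIM were at or above 39.2 FPKM in every library. KRT19, a keratin, stood at 12.02 to 13.98 FPKM in A498 and 75.5 to 89.8 FPKM in 786-O, and PAX2, a kidney transcription factor, at 1.52 to 1.84 FPKM and 1.06 to 1.40 FPKM. MME, a surface peptidase, was at 0.340 to 0.441 FPKM and 1.29 to 1.38 FPKM, and CA9, a hypoxia-induced enzyme typical of clear cell tumors, did not exceed 0.559 FPKM. Of the 6 markers tested in the fit described below, 3 were higher in A498 and 3 lower, against 41.0% and 42.8% of all genes tested. Of 12 leukocyte markers, PTPRC and CD3E were listed at 0 in all libraries. The summed level of the list was 143.5 to 156 FPKM in A498 and 3.34 to 6.79 FPKM in 786-O. Nearly all of it in A498 came from CD68, a lysosomal protein. ITGB2 stood at 3.79 to 4.24 FPKM in A498 and 1.27 to 1.52 FPKM in 786-O. ITGAM stood at 0.508 to 0.692 FPKM against 0.0241 to 0.0606 FPKM, and CD14 at 0.375 to 0.494 FPKM against 0.0416 to 0.193 FPKM. CD68 and ITGB2 were the 2 markers tested, and both were higher in A498, as were 41.0% of all genes tested. Fibroblast and endothelial markers summed to 2.98 to 3.49 FPKM in A498 and 0.293 to 0.383 FPKM in 786-O, with COL3A1 listed at 0 throughout. Most of this came from COL1A1, at 2.87 to 3.42 FPKM in A498 and 0.186 to 0.273 FPKM in 786-O. PDGFRB and KDR stood higher in 786-O, where they reached 0.0899 FPKM and 0.0275 FPKM. Their part in the differences between the cell lines was not tested.

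The DNA just upstream of the CXC chemokine and IL6 genes is shown first. Of the 7 members with a sequence available, these held a match to the NF-κB motif marked below. The stretches hold the 250 bases before the annotated start, on the strand of the gene, from the RefSeq promoter table of build GRCh38.p14, which had entries for 7 of the 10 members. Capitals mark matches to GGNNNTTCC, a common form of the NF-κB site, searched on both strands.
IL6 (chr7:22726950-22727199, plus strand): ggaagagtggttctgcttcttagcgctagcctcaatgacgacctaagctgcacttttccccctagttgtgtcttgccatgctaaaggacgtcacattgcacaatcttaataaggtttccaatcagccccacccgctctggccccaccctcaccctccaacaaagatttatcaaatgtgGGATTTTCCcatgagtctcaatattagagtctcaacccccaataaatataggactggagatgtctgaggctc
CXCL8 (chr4:73740319-73740568, plus strand): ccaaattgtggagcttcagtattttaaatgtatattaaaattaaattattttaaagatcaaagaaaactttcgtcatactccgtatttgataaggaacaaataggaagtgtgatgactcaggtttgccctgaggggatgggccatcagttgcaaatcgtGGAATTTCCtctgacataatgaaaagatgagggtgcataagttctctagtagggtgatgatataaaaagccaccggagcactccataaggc
CXCL1 (chr4:73869143-73869392, plus strand): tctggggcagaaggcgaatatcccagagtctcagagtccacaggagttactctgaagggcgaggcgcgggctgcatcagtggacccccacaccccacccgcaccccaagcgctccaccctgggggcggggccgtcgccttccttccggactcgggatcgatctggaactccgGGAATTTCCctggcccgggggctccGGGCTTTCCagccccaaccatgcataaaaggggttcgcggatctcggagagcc
CXCL2 (chr4:74099196-74099445, minus strand): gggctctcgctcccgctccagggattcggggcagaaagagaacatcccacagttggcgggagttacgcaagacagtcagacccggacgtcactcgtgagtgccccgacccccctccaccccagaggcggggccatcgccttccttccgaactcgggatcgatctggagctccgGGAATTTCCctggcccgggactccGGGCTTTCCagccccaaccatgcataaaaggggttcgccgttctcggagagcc
CXCL3 (chr4:74038690-74038939, minus strand): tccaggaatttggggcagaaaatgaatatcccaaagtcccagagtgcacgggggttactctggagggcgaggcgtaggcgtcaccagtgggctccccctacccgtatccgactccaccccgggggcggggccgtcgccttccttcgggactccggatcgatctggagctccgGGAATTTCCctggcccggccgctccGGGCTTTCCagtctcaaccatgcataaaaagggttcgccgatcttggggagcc
The 5 genes shown are those of the 7 members in the table that held a match. Of all 35116 promoters of the same length, 17.1% held one. A match is a description of the letters and not a site shown to be bound. The match lay 72 bases before the start of IL6 and 91 before that of CXCL8. CXCL1, CXCL2 and CXCL3 each held a pair of matches with the same letters, the nearer one 53 bases before the start in each of them, and the farther one 78, 77 and 78 bases before it. The AP-1 motif TGANTCA was found upstream of 2 of the 7 members, CXCL8 and IL1A, against 6.57% of all promoters. The TATA motif TATAAA was found upstream of the same 2 members, against 10.7% of all promoters. It lay 31 bases before the start of CXCL8 and 239 before an annotated start of IL1A. The shares of all 3 motifs count single promoter entries. A member counted when any of its entries held a match, and IL1A had more than a single entry. No motif overlapped another in the stretches shown. CCL2, LIF and CSF1 had no entry in the table. In hg19, the build of the deposited files, CCL2 lay on chromosome 17 from 32582296 to 32584220, LIF on chromosome 22 from 30636436 to 30642840 and CSF1 on chromosome 1 from 110453233 to 110473616.

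CXCL8, CXCL1, CXCL2 and CXCL3, which attract neutrophils, lie together on chromosome 4. CXCL8 stood at 73.3 and 88.3 FPKM in the A498 NTC libraries, 81.6 with siRNA1 and 89.2 with siRNA2, and at 42.9, 43.4, 55.5 and 50.3 FPKM in the same order in 786-O. CXCL2 stood at 15.9 and 16.8 FPKM in the A498 NTC libraries, 15.8 with siRNA1 and 19.1 with siRNA2, and at 3.69, 3.60, 4.56 and 3.72 FPKM in 786-O. For both genes, every A498 library was above every 786-O library. The values are averages over a culture, so more RNA per cell and more expressing cells cannot be told apart. CXCL3 was the lowest of the group, with 4.32, 3.93, 4.49 and 4.52 FPKM in A498 and 1.71, 1.59, 2.36 and 1.48 FPKM in 786-O, again without overlap.

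CXCL1 stood at 14.0, 16.7, 15.0 and 16.5 FPKM in A498 and at 10.1, 7.88, 14.2 and 10.9 FPKM in 786-O, so that the 786-O library with siRNA1 reached the range of A498. The lowest of these values, that of the second 786-O NTC library, had a Cufflinks interval of 0.192 to 15.6 FPKM, and a non-coding CXCL1 entry held 1.36 FPKM there. CXCL1, CXCL2 and CXCL3 are close paralogs. Of the 36-base words of the longest coding transcript, the length of a read, 11.4% in CXCL1, 18.1% in CXCL2 and 8.17% in CXCL3 also occurred in one of the other two, against 0 in CXCL8, and how reads from shared words were divided is not given in the sources used here.

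CCL2, the monocyte attractant on chromosome 17, gave the widest separation of the cell lines among the members tested. It stood at 194 and 198 FPKM in the A498 NTC libraries, 218 with siRNA1 and 236 with siRNA2, and at 19.1 and 18.7 FPKM in the 786-O NTC libraries, 32.8 with siRNA1 and 25.6 with siRNA2. The lowest A498 library was thus far above the highest 786-O library, and within each cell line both siRNA libraries were above both NTC libraries.

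IL6, the founding member of its cytokine family, stood at 68.5, 72.6, 76.7 and 80.0 FPKM in A498 and at 13.0, 14.6, 17.9 and 14.2 FPKM in 786-O, with no overlap between the cell lines. LIF, named for its effect on leukemia cells and also important in stem cell culture, stood at 41.7, 37.7, 36.0 and 38.1 FPKM in A498 and at 35.3, 37.7, 34.1 and 36.7 FPKM in 786-O, and the ranges overlapped. CSF1 stood at 211, 200, 200 and 192 FPKM in A498 and at 75.4, 82.7, 87.2 and 75.3 FPKM in 786-O, with no overlap.

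CSF1 and LIF are the members with several RefSeq transcripts that were summed. For CSF1, NM_172211 held 54.1% to 58.1% of the level in A498 and 59.1% to 63.8% in 786-O, and NM_000757 held most of the remainder, with 40.5% to 44.6% and 34.2% to 39.5%. For LIF, NM_001257135 held 66.1% to 77.2% in A498 and 75.7% to 80.2% in 786-O. With 36-base single-end reads, such shares are estimates of Cufflinks and not direct counts.

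The IL-1 genes, whose products start many inflammatory responses, were the lowest members. IL1A stood at 0.180, 0.170, 0.208 and 0.161 FPKM in A498, and at 0.0303, 0.0113, 0.0301 and 0.00780 FPKM in 786-O, and the Cufflinks intervals correspond to 74 reads over the A498 libraries and 9 over those of 786-O. IL1B stood at 0.581, 0.674, 0.546 and 0.829 FPKM in A498, which corresponds to 124 reads, and was listed at 0 in all 4 libraries of 786-O, where 3 reads in a library would have given 0.0358 to 0.0637 FPKM. All 4 A498 libraries were above all 4 of 786-O for both genes, which was also the case for 37.7% of the 10503 genes tested. The read numbers came out within 0.001 of whole numbers, and such floors cover counting error only.

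**Figure D1:**
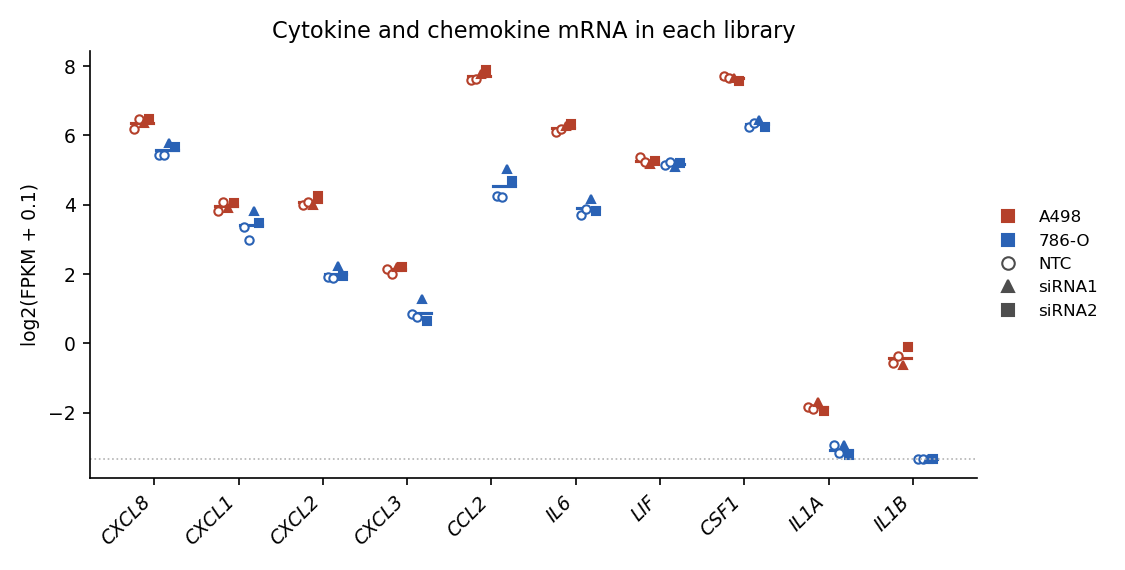
Level of the 10 genes in each of the 8 libraries, as log2(FPKM + 0.1), in A498 (red) and 786-O (blue), with open circles for NTC, triangles for siRNA1, squares for siRNA2 and a line at the mean of the 4 libraries. The dotted line is a level of 0, where IL1B lies in 786-O. The cell lines are apart for CCL2, IL6, CXCL2 and CSF1 and overlap for LIF and CXCL1.

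By mean level over its 4 libraries, the order in A498 was CCL2, CSF1, CXCL8, IL6, LIF, CXCL2, CXCL1, CXCL3, IL1B and IL1A. Neighbours in this order whose libraries overlapped were CCL2 and CSF1, CXCL8 and IL6, and CXCL2 and CXCL1. In 786-O the order was CSF1, CXCL8, LIF, CCL2, IL6, CXCL1, CXCL2, CXCL3, IL1A and IL1B, and the libraries of IL6 and CXCL1 overlapped. CCL2, the highest member in A498, was thus the fourth in 786-O. FPKM values are per length of transcript, which allows such an order between genes.

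In the comparison of A498 with 786-O, 7 of the 8 members tested were higher in A498 and LIF did not pass the test. The test was limma on log2(FPKM + 0.1) over all 8 libraries, with the siRNA as a covariate and Benjamini-Hochberg adjustment over 10503 genes at 0.05. The cell lines differed widely, since 41.0% of all genes tested were higher in A498 and 42.8% were lower, so a call for a single member is common in this comparison. The libraries of 6 of the 8 members did not overlap, with A498 higher, against 37.7% of all genes tested. The median difference of the 8 members was 1.29 on the log2 scale, and that of all genes tested was -0.02.

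CCL2 was higher in A498 by 3.17 on the log2 scale (SE 0.0954, adjusted p = 3.27e-09 in limma). IL6 was higher by 2.32 (SE 0.0663, adjusted p = 2.37e-09), and CXCL2 by 2.09 (SE 0.0812, adjusted p = 1.75e-08). These 3 genes lay at the 95.8th, 93.8th and 93.0th percentile of all differences in this comparison. CSF1 was higher by 1.33 (SE 0.0467, adjusted p = 9.22e-09) and CXCL3 by 1.25 (SE 0.0990, adjusted p = 2.35e-06). CXCL8 was higher by 0.79 (SE 0.0733, adjusted p = 6.90e-06) and CXCL1 by 0.55 (SE 0.127, adjusted p = 0.00299). The differences of the 4 CXC chemokines spanned 0.55 to 2.09.

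LIF differed by 0.09 (SE 0.0447, adjusted p = 0.0813 in limma). Without the second A498 NTC library its difference was 0.12 and passed the test with an adjusted p of 0.0475, and over all alternatives the adjusted p ranged from 0.0439 to 0.929. IL1A and IL1B were not in the fit. An exact two-sided permutation test compared 4 libraries with 4 on the scale of log2(FPKM + 0.1). IL1A was higher in A498 by 1.22 and IL1B by 2.91, each with p = 0.0286 in this permutation test. This is the smallest p that the 70 arrangements allow, and any gene without overlap between the cell lines reaches it. These differences of low genes depend on the pseudocount, and that of IL1A was 2.75 with 0.01 FPKM.

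**Figure D2:**
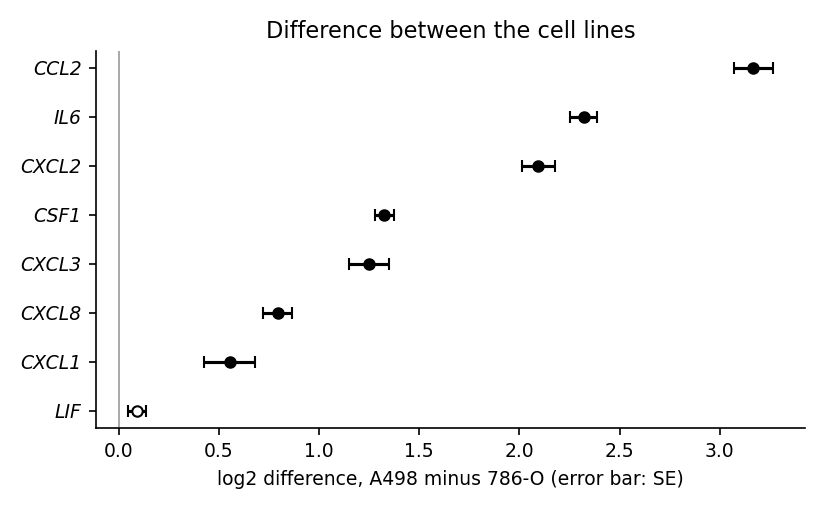
Difference between the cell lines (A498 minus 786-O, log2) of the 8 members tested, from limma, with error bars of 1 SE. Filled points passed the test at an adjusted p of 0.05. The values run from 0.09 for LIF, the open point, to 3.17 for CCL2.

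The next comparison asks whether the cytokines moved when SLINKY was knocked down. Each siRNA had a single library in each cell line, so levels were first set against the mean of the matching NTC libraries with the 1.25-fold threshold used in the study, as a description with no test. In A498, no member tested was past 1.25-fold in either direction with siRNA1 or siRNA2. The same threshold was passed upward by 1.39% and downward by 2.42% of all genes with siRNA1, and by 2.37% and 3.12% with siRNA2. The closest member tested was CCL2 with siRNA2, at 1.20-fold of the NTC mean. IL1B, which was not in the fit, was at 1.28-fold with siRNA2 after adding 0.1 FPKM, on 27 reads in that library.

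In 786-O with siRNA1, 5 of the 8 members were past 1.25-fold upward and none downward, against 3.15% and 2.76% of all genes. CCL2 was at 1.73-fold, CXCL1 at 1.57-fold, CXCL3 at 1.40-fold, and IL6 and CXCL8 at 1.29-fold, after adding 0.1 FPKM. CXCL2 stood just under the threshold at 1.2455-fold, and without the pseudocount it was at 1.2522-fold. LIF was at 0.933-fold and CSF1 at 1.10-fold. With the non-coding CXCL1 entry added, CXCL1 remained past the threshold, and the count of members was still 5.

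In 786-O with siRNA2, CCL2 at 1.35-fold was the only one of the 8 past 1.25-fold upward, and none was past it downward, against 2.18% and 1.74% of all genes. CXCL1 followed at 1.22-fold and CXCL8 at 1.16-fold, while CXCL3 was at 0.900-fold. The NTC libraries themselves differed by this much for 4.67% of all genes in A498, with none of the members among them. In 786-O they did so for 4.63%, with CXCL1 as the member. The coding entry of CXCL1 had the wide interval given above in the second 786-O NTC library. The non-coding CXCL1 entry held 1.36 FPKM there and 0.827 FPKM in the first A498 NTC library. Whether the division of reads between the entries played a part in the CXCL1 difference was not tested.

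The position against both NTC libraries gave a similar picture in 786-O. With siRNA1, 7 of the 8 members were above both NTC libraries of 786-O, against 38.3% of all genes, and LIF was below both. With siRNA2 the number was 4 of 8 against 35.7%. In A498, 3 of the 8 were above both NTC libraries with siRNA1 against 32.1% of all genes, and 5 of 8 with siRNA2 against 39.3%. The median of the 8 members was 0.37 on the log2 scale in 786-O with siRNA1 and 0.03 with siRNA2, and -0.01 and 0.14 in A498, where the median of all genes was 0.01, 0.00, 0.01 and 0.02.

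**Figure D3:**
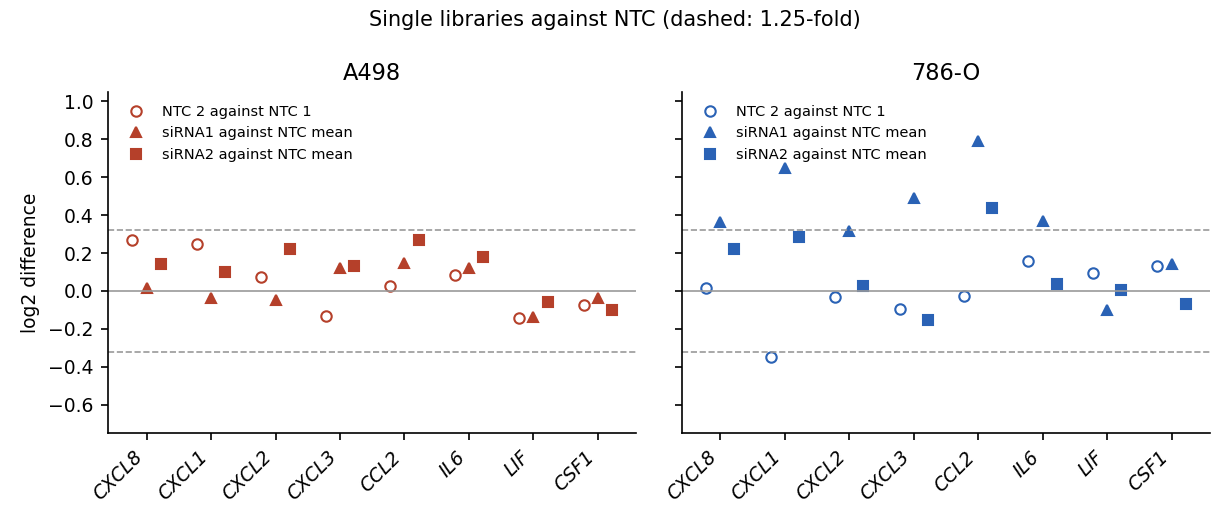
Log2 difference of single libraries from NTC for the 8 members tested, in A498 (left) and 786-O (right), with triangles for siRNA1 and squares for siRNA2 against the NTC mean, and open circles for the second NTC library against the first. Dashed lines mark 1.25-fold. In 786-O the triangles of CCL2, CXCL1, CXCL3, IL6 and CXCL8 lie above the upper dashed line, and in A498 no filled point does.

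In the fit of all 8 libraries, with a term for the cell line, 0 of the 8 members passed limma's test for siRNA1 against NTC, where 0.343% of all genes did. At an unadjusted p under 0.05 there were 3 members. CCL2 differed by 0.47 (SE 0.117, adjusted p = 0.205), IL6 by 0.25 (SE 0.0812, adjusted p = 0.346) and CXCL3 by 0.31 (SE 0.121, adjusted p = 0.431) on the log2 scale. Of the other members, CXCL1 differed by 0.32, CXCL8 by 0.19, CXCL2 by 0.14, CSF1 by 0.05 and LIF by -0.12, with adjusted p between 0.494 and 0.764.

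The siRNA1 value of CCL2 rested on unequal libraries. Without the A498 library of siRNA1 the difference was 0.76 and passed the test with an adjusted p of 0.0110, whereas without the 786-O library it was 0.18, and over all alternatives the adjusted p ranged from 0.0110 to 1.00. Without the 786-O library of siRNA1, CXCL1 differed by 0.00, CXCL8 by 0.03, CXCL3 by 0.08 and IL6 by 0.10. For these genes the value of siRNA1 was thus smaller in A498 than in 786-O.

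For siRNA2 against NTC, 0 of the 8 members passed limma's test, where 0.0286% of all genes did, and 1 member had an unadjusted p under 0.05. This member was again CCL2, with a difference of 0.35 (SE 0.117, adjusted p = 0.312). CXCL1 differed by 0.20, CXCL8 by 0.18, CXCL2 by 0.12, IL6 by 0.11, CXCL3 by -0.01, LIF by -0.02 and CSF1 by -0.08. With the non-coding CXCL1 entry added, an alternative chosen after seeing the data, CXCL1 differed by 0.24 for siRNA1 and by 0.12 for siRNA2. The siRNAs share the NTC libraries, so these values are not independent of those of siRNA1.

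siRNA1 and siRNA2 were also compared with each other. None of the 8 members passed limma's test, against 0.371% of all genes, and 0 had an unadjusted p under 0.05. The differences, siRNA1 minus siRNA2, ran from -0.09 for LIF (SE 0.0632, adjusted p = 0.690) to 0.32 for CXCL3 (SE 0.140, adjusted p = 0.534).

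The difference of the knockdown between the cell lines was tested as an interaction, with both siRNAs together. None of the 8 members passed limma's test, where 0.00952% of all genes did, and 1 had an unadjusted p under 0.05. All 8 values were negative (a lower knockdown difference in A498), as were 49.1% of all genes tested. With 1 library left out, the values of 5 of them (IL6, CXCL2, CXCL3, LIF and CSF1) became positive in at least 1 case, so the count of 8 depends on single libraries. CCL2 had an interaction of -0.41 (SE 0.146, adjusted p = 1.00), and the members ran from -0.44 for CXCL1 (SE 0.216, adjusted p = 1.00) to -0.04 for CXCL3 (SE 0.254, adjusted p = 1.00). That the 786-O libraries stood higher with siRNA1 is thus a description of single libraries, and the difference between the cell lines did not pass the test.

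Both siRNA libraries were also set against both NTC libraries within each cell line, in a test added after seeing the data. Within 786-O, 0 of the 8 members passed limma's test, as for 0.00% of all genes, and 3 had an unadjusted p under 0.05. These were CCL2, with a difference of 0.62 (SE 0.103, adjusted p = 0.354), CXCL1 with 0.48 (SE 0.153, adjusted p = 0.953) and CXCL8 with 0.29 (SE 0.0936, adjusted p = 0.953). Without the 786-O library of siRNA2, CCL2 differed by 0.79 and passed the test with an adjusted p of 0.0144, and over all alternatives the adjusted p ranged from 0.0144 to 0.805. Within A498, 0 of the 8 passed, where 0.00952% of all genes did, and 0 had an unadjusted p under 0.05. CCL2 had the largest of these values, 0.21 (SE 0.103, adjusted p = 0.774).

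After the cell line mean was subtracted, the 8 members were averaged in each library. This average was highest in the 786-O library of siRNA1, at 0.26 on the log2 scale. The members did not all share it. CCL2 and CXCL8 correlated at 0.868, whereas LIF correlated at -0.547 with IL6, -0.628 with CXCL1 and 0.0716 with CSF1. The average was compared with every other gene tested over the 8 libraries. The most alike were MR1, an antigen-presenting molecule, at r = 0.986, KLHDC7A at 0.985, HOXC10, a homeobox factor, at 0.979, TENT5A at 0.979 and ATP8B1, a phospholipid transporter, at 0.978. MR1 stood at 4.57, 4.64, 4.80 and 5.003 FPKM in A498 and at 0.421, 0.428, 0.550 and 0.447 FPKM in 786-O. They are the highest of 10495 correlations, over 8 libraries of 2 cell lines that differ in depth, and carry no test.

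The receptors give the other side of these signals. CXCR1, CXCR2 and CCR2, the receptors of the CXC chemokines and of CCL2, did not exceed 0.0333 FPKM in any library. CSF1R, the receptor of CSF1, stood at 0.0315 to 0.0864 FPKM in A498 and at 0.671 to 0.857 FPKM in 786-O, the cell line with less CSF1. LIFR, the receptor of LIF, likewise stood at 0.371 to 0.547 FPKM in A498 and at 1.07 to 1.24 FPKM in 786-O.

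IL6R, which binds IL-6, stood at 1.92 to 2.44 FPKM in A498 and at 0.480 to 0.599 FPKM in 786-O, with no overlap. It reached the mean of 1 FPKM only through A498, so its call in the fit is not used. IL6ST, which encodes gp130, stood at 0.474 to 0.712 FPKM in A498 and at 0.251 to 0.302 FPKM in 786-O. An overlapping non-coding entry held 11.2 to 12.9 FPKM and 5.40 to 6.41 FPKM at this locus, so the coding level of IL6ST is uncertain.

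Among IL-1 receptors, IL1R1, the signalling receptor, was at 2.94 to 3.37 FPKM in A498 and 2.38 to 2.62 FPKM in 786-O, with a difference of 0.31 (SE 0.0642, adjusted p = 0.00148 in limma). IL1RAP, its coreceptor, was lower in A498 by 0.58 on the log2 scale, at 2.20 to 2.72 FPKM against 3.14 to 4.58 FPKM. IL1RN, the secreted antagonist, stood at 1.08 to 1.36 FPKM in A498, above IL1A and IL1B there, and at 0.0536 to 0.160 FPKM in 786-O. IL1R2, a decoy, did not exceed 0.190 FPKM in its coding entries, while a non-coding entry of the gene held 7.42 to 8.31 FPKM in A498 and 1.90 to 2.37 FPKM in 786-O.

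**Figure D4:**
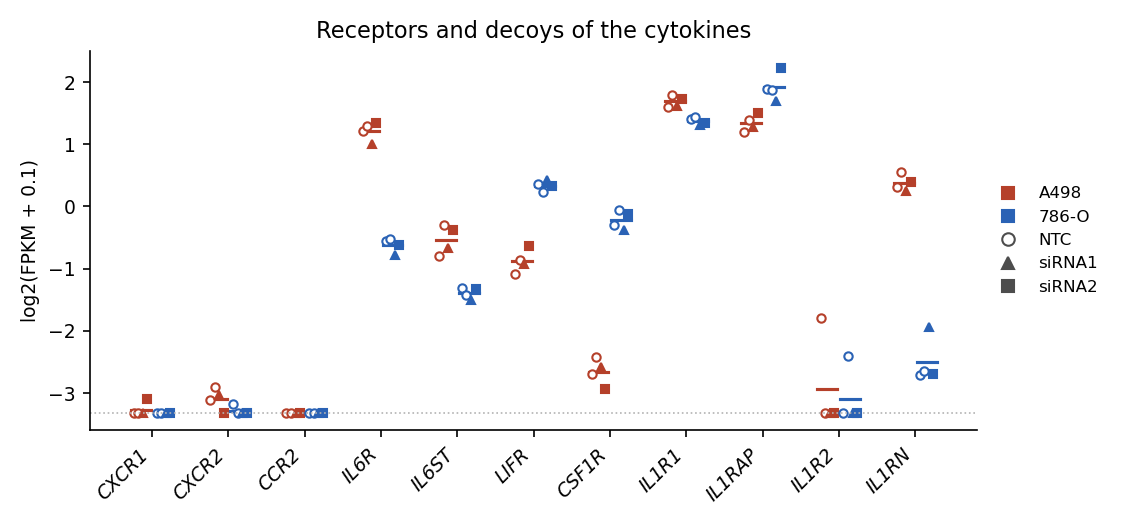
Level of the receptors and decoys of the members in each library, as log2(FPKM + 0.1), with the same colors and symbols for cell lines and siRNAs as for the members; the dotted line is a level of 0. CXCR1, CXCR2 and CCR2 lie at or near this line, IL6R and IL1RN are higher in A498, and LIFR and CSF1R are higher in 786-O.

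The rest of the pathway was described with 129 further genes, of which 72 were tested. Between the cell lines, 35 of these were higher in A498 and 28 were lower, against 41.0% and 42.8% of all genes. Genes that reach a mean of 1 FPKM through a single cell line had to differ. This was the case for 16 of the 72, with 6 among other chemokines, 4 among other cytokines, 2 among receptors and decoys and 4 among genes of signalling and maturation, and for 9.84% of all genes tested. The counts of these lists between the cell lines are therefore a description, and the genes concerned are given by their levels.

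Among other chemokines, 5 were higher in A498 and 3 lower of 8 tested from 29. Of the 4 named here, CCL26, CXCL10 and CXCL5 were tested through a single cell line. CCL26, an eosinophil attractant, stood at 78.4 to 81.1 FPKM in A498 and 0.532 to 0.731 FPKM in 786-O. CCL5, which attracts T cells, stood at 106 to 110 FPKM against 0.804 to 1.36 FPKM, and CXCL10, an interferon-induced chemokine, at 13.8 to 18.5 FPKM against 0.190 to 0.324 FPKM. CXCL5, which like CXCL1 acts through CXCR2, went the other way, with 0.351 to 0.447 FPKM in A498 and 39.3 to 46.5 FPKM in 786-O.

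Among other cytokines, 7 were higher in A498 and 7 lower of 15 tested from 34, and EBI3, IL34 and TNF were tested through a single cell line. EBI3, a subunit of IL-12 family cytokines, stood at 48.4 to 52.5 FPKM in A498 and 0.883 to 1.17 FPKM in 786-O. IL34, the second ligand of CSF1R, stood at 3.23 to 3.41 FPKM against 0.0991 to 0.109 FPKM, and IL18, an IL-1 family cytokine, at 27.0 to 31.0 FPKM against 5.52 to 7.93 FPKM. TNF, a classical inducer of the members, was at 0.128 to 0.211 FPKM in A498 and at 5.44 to 6.52 FPKM in 786-O.

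Of the receptors and decoys, 6 of the 8 tested from 22 were higher in A498 and 2 were lower. SIGIRR, an inhibitory receptor of the IL-1 family, was higher by 1.74 and TNFRSF1A, a TNF receptor, by 0.80 on the log2 scale, while IL11RA, like IL6R, was tested through A498 alone. Among genes of signalling and maturation, 14 were higher in A498 and 10 lower of 28 tested from 31. CASP1, the protease that activates IL-1β and IL-18, stood at 11.1 to 12.2 FPKM in A498 and 0.147 to 0.266 FPKM in 786-O. CEBPB, a transcription factor first known for binding the IL6 gene, was higher in A498 by 1.69, and SOCS3, an inhibitor of IL-6 signalling, by 1.66, both with means above 1 FPKM in each cell line. CASP1 was tested through A498 alone and the inflammasome sensor NLRP1, at 0.468 to 0.567 FPKM in A498 and 3.12 to 3.29 FPKM in 786-O, through 786-O alone.

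The list of factors that govern the decay of cytokine mRNA held 13 genes, all tested, with 3 higher in A498 and 6 lower. TNIP1, among the 4 not called, was in this list although it is not itself an mRNA decay factor. ZFP36, which binds AU-rich elements and promotes decay, was higher in A498 by 1.45 (SE 0.0638) and its relative ZFP36L2 by 0.84 (SE 0.0488). ARID5A, which stabilizes IL6 mRNA, was higher by 0.73 (SE 0.0527), and ELAVL1, also a stabilizing protein, was lower by 0.78 in A498 (SE 0.0422). ZC3H12A, which degrades IL6 mRNA, stood at 4.89 to 5.79 FPKM in A498 and 4.74 to 5.80 FPKM in 786-O.

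**Figure D5:**
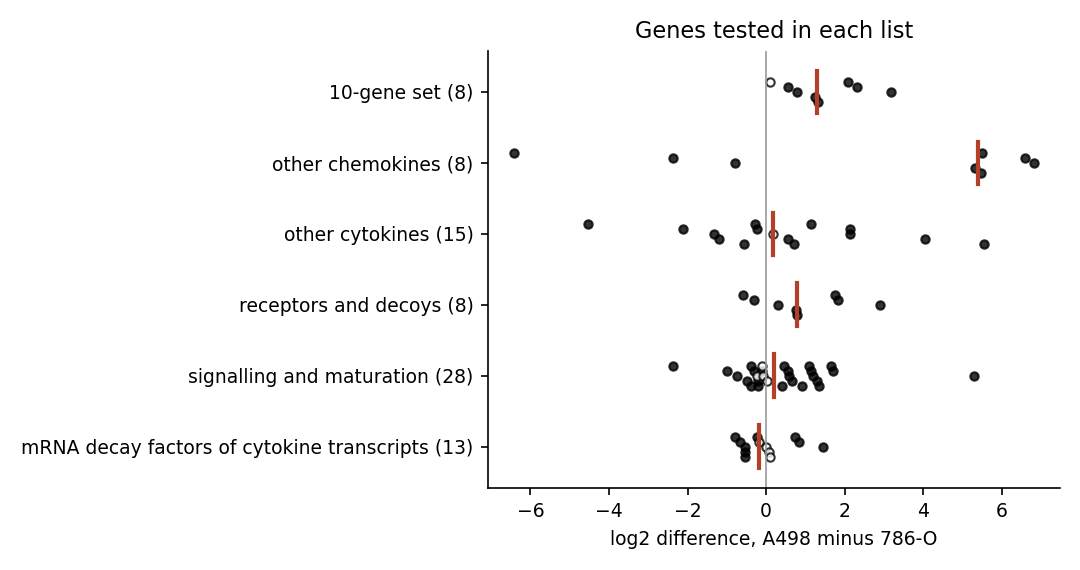
Log2 difference between the cell lines (A498 minus 786-O) of every gene tested in each list, with the number tested in brackets. Filled points passed limma's test, open points did not, and the red bar is the median. The 8 members tested all lie above 0, between 0.09 and 3.17, while the other chemokines reach from -6.42 to 6.81, among them 6 that were tested through a single cell line.

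With the siRNAs, 3 of the 72 further genes tested passed in some comparison. Against NTC, 1 passed for siRNA1 and 0 for siRNA2, where 0.343% and 0.0286% of all genes did. Between the siRNAs 3 passed, where 0.371% of all genes did. MYD88, the adaptor of IL-1 and Toll-like receptors, stood at 15.0, 13.9, 10.7 and 14.9 FPKM in A498 and at 5.92, 6.34, 4.60 and 6.82 FPKM in 786-O. It was the lowest with siRNA1 in both cell lines, and was lower than in NTC by 0.42 (adjusted p = 0.0360 in limma, 0.0303 to 0.592 over the alternatives) and lower than with siRNA2 by 0.52 (adjusted p = 0.0219, 0.0190 to 0.521).

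IL11, a cytokine of the IL-6 family, and TNFSF10, the death ligand TRAIL, passed only between the siRNAs. IL11 was at 2.13 FPKM with siRNA1 and 3.22 FPKM with siRNA2 in A498, and at 5.61 and 8.72 FPKM in 786-O, and differed by -0.60 (adjusted p = 0.0249 in limma, 0.0208 to 0.839 over the alternatives). TNFSF10 was at 17.4 and 23.7 FPKM in A498 and at 70.4 and 107 FPKM in 786-O, and differed by -0.53 (adjusted p = 0.0196, 0.0179 to 0.521). Of 17 alternatives, the call was lost in 12 for MYD88 against NTC, in 11 for MYD88 between the siRNAs, in 11 for IL11 and in 9 for TNFSF10, among them those without the 786-O library of siRNA1 or of siRNA2. The differences kept their direction, and with each library left out MYD88 ranged from -0.44 to -0.39 against NTC and from -0.57 to -0.47 between the siRNAs, IL11 from -0.65 to -0.55 and TNFSF10 from -0.59 to -0.46. With the highest entry per symbol, IL11 differed by -0.26. No gene of these lists passed for siRNA2 against NTC, for the interaction or for the knockdown within a cell line.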

How the data were processed

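RNA-seq was done on 8 libraries of A498 and 786-O cells. According to the methods of the study, single-end reads of 36 bases were mapped to hg19 and quantified with Cufflinks. The submitters' processing notes name TopHat2 2.0.0, Cufflinks 2.0.2 and hg19. The deposited tables hold FPKM values that the authors computed for each library on its own, with the Cufflinks interval of each entry and no scaling between libraries stated. The tables hold no counts, and a test for log values was used.

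RefSeq coding entries (NM, 35951 per table) were given current symbols from a RefSeq gene table, used for names only, with 97.7% matched, and FPKM was summed per symbol. Genes with a mean of at least 1 FPKM (10503) were tested with limma 3.58.1 in R 4.3.3 on log2(FPKM + 0.1), with the variance trend over expression, a model of cell line and siRNA, and Benjamini-Hochberg adjustment at 0.05. The interaction used cell line and knockdown, with the siRNAs as replicates. IL1A and IL1B were compared by an exact permutation test. Read numbers and depth were estimated from the intervals and FPKM of entries with few reads, so intervals and floors cover counting error only. The versions were 3.11.15 for Python, 2.4.6 for numpy, 2.3.3 for pandas, 1.17.1 for scipy and 3.10.9 for matplotlib. The fit was tested on simulated data.

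All 10 members were named. Of the other lists, the text names up to 4 called genes with the largest difference between the cell lines and any gene called for an siRNA. It also names the receptors of the members and the 5 genes most alike in profile. Named outside this rule were TNIP1 and ZC3H12A, which were not called, and some cell type markers given by level. The members and lists were chosen with earlier results of these data known. Alternatives were other pseudocounts, no filter, the highest entry per symbol, median ratio scaling, no variance trend, leaving out genes spanning under 200 bp, a replicate block and leaving out each library. Sums with non-coding (NR) entries, a crossed block and the knockdown within each cell line, from the fit of the interaction, were added after seeing the data. The siRNA sequences were not used here.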

Additional observations from a re-analysis of the deposited data

How the results depend on the processing

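In every alternative at least 7 members were called between the cell lines, and the number was 7 to 8 when each library was left out in turn. For siRNA1 against NTC, 0 to 1 member was called when each library was left out, the 1 being CCL2. For siRNA2 against NTC, for siRNA1 against siRNA2, for the interaction and for the knockdown within A498, no member was called in any alternative. Within 786-O the number was 0 to 1 with each library left out, the 1 again being CCL2. In 786-O with siRNA2, 1 to 2 members were past 1.25-fold upward with each NTC library alone.

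Values with no call changed sign in places. For siRNA2 against NTC, CXCL3 was 0.0051 with a pseudocount of 1 FPKM and ranged from -0.21 to 0.19 with each library left out, CXCL2 from -0.032 to 0.28, IL6 from -0.0023 to 0.22 and LIF from -0.051 to 0.0090. For siRNA1 against NTC, CSF1 ranged from -0.033 to 0.14 and CXCL2 from -0.079 to 0.35. LIF between the siRNAs was 0.024 with the highest entry per symbol, and the difference of LIF within 786-O ranged from -0.099 to 0.0074. The interaction ranged from -0.36 to 0.28 for CXCL3, from -0.22 to 0.11 for IL6, from -0.23 to 0.059 for CXCL2, from -0.12 to 0.022 for LIF and from -0.21 to 0.00066 for CSF1 with each library left out. The cause was not tested.

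With the replicate block, the members called were 7 between the cell lines and 0 in the other comparisons, CXCL3 for siRNA2 was 0.046, and 2 members in 786-O were past 1.25-fold with siRNA2 against the NTC library of the same number. Whether the numbers pair the libraries is not known. Deviations of libraries with the same number correlated at 0.254 in A498 and -0.0312 in 786-O. For the NTC numbers across the cell lines the correlation was -0.256. These values cannot exclude a pairing, since each rests on few libraries. Crossing the numbers over the NTC libraries gave 8 calls. Among the other genes named, MYD88, IL11 and TNFSF10 lost their siRNA calls with the block, and IL1R1 lost its call between the cell lines in the NTC libraries alone with the block (adjusted p = 0.0807).

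With 1 library per siRNA and cell line, the value of a single siRNA in a single cell line was given as a fold with no test, and the exact test of IL1A and IL1B cannot go below 0.0286. Over all 10503 genes, 36 passed for siRNA1 against NTC and 3 with the block, 39 and 0 between the siRNAs, and 3 and 1 for siRNA2. No gene tested spanned under 200 bp, so leaving such genes out changed nothing.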
